A study of Mus musculus with 6 samples.

Results

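A set of 10 genes that encode paired or single isozymes of glycolysis and of the phosphagen system was followed in DM1 myoblasts with and without overexpression of miR-322/-503. They are Pygm, Pfkm, Pfkl, Pgam1, Pgam2, Eno1, Eno3, Ckm, Ckb and Ak1, taken by gene name, and each name matched 1 identifier of the 55421 in the count table. RNA-seq gave 3 control libraries and 3 miR-322/-503 libraries, all from cells at differentiation day 4. All cells were derived from C2C12, mouse myoblasts that form myotubes in low-serum medium, and all stably carried a plasmid with the GFP gene and 200 CUG repeats under G418 selection, which models the repeat expansion of myotonic dystrophy type 1 (DM1). On top of this, the control line (CUG200-ctrl) carried the empty lentiviral vector and the other line (CUG200-m) the vector with miR-322/-503, both under puromycin selection, and both were switched to differentiation medium with horse serum and insulin. Each group was a stable line of its own, so a difference between the lines and an effect of the microRNAs cannot be told apart. The study's methods describe biological as well as technical replicates for its assays in general, while the labels do not say whether the 3 libraries of a group came from separate cultures, and the p-values below measure the spread between these samples.

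Muscle fibers meet sudden demands for ATP in several ways. Glycogen phosphorylase releases glucose units from glycogen, phosphofructokinase commits them to glycolysis, phosphoglycerate mutase and enolase carry out late steps before pyruvate is made, creatine kinase recharges ADP from phosphocreatine, and adenylate kinase makes ATP and AMP from ADP. During muscle differentiation the non-muscle isozymes (Pgam1, Eno1, Ckb) are partly replaced by the muscle isozymes (Pgam2, Eno3, Ckm), and Pfkm, Pygm and Ak1 are the muscle forms of their enzymes.

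In these libraries, 2 of the 10 genes rose with miR-322/-503, 1 fell, and 7 did not pass the test (edgeR's quasi-likelihood test, adjusted p below 0.05 over 18140 genes). Pgam2, the muscle phosphoglycerate mutase, rose 2.75-fold, and Ckm, the muscle creatine kinase, rose 1.83-fold. Eno1, the non-muscle enolase, fell to 0.781 of the control level, a call that was lost when the counts of its near-identical copy were added to it. Over all tested genes, 28.8% passed the same test, 13.2% higher and 15.5% lower, so that the 3 of 10 are close to the background share. In counts scaled to library size by the TMM method (CPM), the 2 groups did not overlap for the same 3 genes, as was the case for 45.1% of all tested genes, 21.6% higher and 23.5% lower. Pgam2 was also the only one of the 10 that passed the test with a log2 fold change beyond 1 in size, as did 4.59% of all tested genes upward and 5.29% downward.

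The overexpressed microRNAs share most of their seed, the bases 2 to 8 that pair with target transcripts. They are shown because a match to the seed is how a direct target would be looked for. In the mature sequences below, from RefSeq on GRCm38.p6, capitals mark the seed. The mature sequence of miR-322-5p lies at chrX:53054306-53054327 and that of miR-503-5p at chrX:53054027-53054049, both on the minus strand.
miR-322-5p: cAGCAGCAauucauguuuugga
miR-503-5p: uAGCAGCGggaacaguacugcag
The first 6 seed bases are the same in both, and their match in a transcript, read as DNA, is GCTGCT. The full match is TGCTGCT for miR-322-5p and CGCTGCT for miR-503-5p, and a full match contains the shorter one. RNA-seq read few counts over the precursor genes (Mir322 between 0 and 17, Mir503 between 1 and 6 per library), so the overexpression could not be followed here.

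Among the longest annotated 3′UTRs of the 10 genes (GENCODE M21, transcript strand), only that of Pfkl held a full match, with 2 for miR-322-5p and none for miR-503-5p. The shorter match was present in 5 of the 10, namely Pgam1, Eno1, Pfkl, Ckm and Ak1. Over 13416 tested genes with a 3′UTR of at least 50 bases, 45.2% held the shorter match, 24.4% the miR-322-5p match and 4.87% the miR-503-5p match. The windows of Pfkl, and that of Eno1 as the gene that fell, are given with the match in capitals, at chr10:77988063-77988088 and chr10:77987312-77987337 on the minus strand and at chr4:150248575-150248600 on the plus strand of GRCm38.
Pfkl, first site: gggtctactgTGCTGCTctggggctc
Pfkl, second site: ttacgtgagcTGCTGCTgggtccatc
Eno1: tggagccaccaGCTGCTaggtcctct
Pfkl, with both full matches, had a log2 fold change of 0.05, and Pgam2, whose 3′UTR is 33 bases long and holds no match, had the highest of the 10. The median log2 fold change of all genes was 0.01 with the miR-322-5p match and -0.02 without it.

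Since Pgam2 and Ckm rose and their non-muscle partners did not, the start of each gene was also read, from 250 bases before to 50 after the RefSeq start site. The letters searched were the E-box CANNTG, which the myogenic bHLH factors bind, its form CAGCTG, and the MEF2 motif, on both strands. The E-box was in 72.3% of 32851 promoters, CAGCTG in 16.3% and the MEF2 motif in 3.19%. Pgam2 held 5 E-boxes, 1 of which was CAGCTG, and 1 MEF2 match. Ckm held 1 E-box, which was CAGCTG, at the far end of the window. Among the muscle forms that did not pass the test, Eno3 held 2 E-boxes, 1 of them CAGCTG, and Pygm held 3, 2 of them CAGCTG. Ak1 held E-boxes at all 4 of its start sites, CAGCTG at 2 of them and a MEF2 match at 1, and Pfkm held E-boxes at 3 of 4 start sites and no CAGCTG. Of the non-muscle forms, Pfkl held 3 E-boxes and Eno1 held 2 at 1 of its 3 start sites, with no CAGCTG in either. Pgam1 held none of the 3 motifs, and Ckb held no E-box and 1 MEF2 match. The matches, in capitals within stretches of 30 bases of GRCm38.p6, are at chr11:5803904-5803933 and chr11:5803857-5803886 (minus strand) for Pgam2, at chr7:19410844-19410873 (plus) for Ckm and at chr12:111672348-111672377 (minus) for Ckb.
Pgam2, E-box: gttaccaggtgcCAGCTGgttatggggctt
Pgam2, MEF2 motif: ttttgtgagaCTATTTTTAAgttcagctcc
Ckm, E-box: cCAGCTGtcccccgccagctagactcagca
Ckb, MEF2 motif: aatgaatgggCTATAAATAGccgccaatgg
In Pgam2 the E-box lies 125 bases and the MEF2 match 80 bases before the start site, and in Ckb the MEF2 match lies 29 bases before it. These are matches of letters, and binding was not measured.

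The labelled stage was checked against lists of marker genes. All 14 listed myotube genes, such as the transcription factors Myod1 and Myog and the sarcomere genes Actn2 and Acta1, were detected in both groups, although Myf6 was at 0 in control replicate 2. Their summed level lay between 3987 and 4402 CPM in control libraries and between 5291 and 5415 CPM in miR-322/-503 libraries, and 8 of the 14 rose and 1 fell, with a median log2 fold change of 0.44, beside 13.2% higher and 15.5% lower and a median of -0.01 over all tested genes. Mef2c, a transcription factor of muscle differentiation, rose from 2.49, 1.61 and 1.599 CPM in the control to 20.8, 22.3 and 26.8 CPM with miR-322/-503. Casq2, a calcium store protein of the sarcoplasmic reticulum, rose with a log2 fold change of 1.18, and Tnnt3, fast skeletal troponin T, with one of 1.04. The gene that fell was Myog, which drives the entry into differentiation, with a log2 fold change of -0.74. Mymk, a myoblast fusion gene, and Myh8, a myosin gene, were lower in every miR-322/-503 library, with log2 fold changes of -0.41 and -1.09. Neither passed the test (edgeR adjusted p = 0.0796 and 0.0616). By RT-qPCR, the study reports that all its myogenic and fusion genes rose with the overexpression, Myog and Mymk among them. Here both were lower, while Mef2c, Myod1 and Mymx of that set rose and Myf6 did not pass. The cause of the difference was not tested. The count of myotube genes that rose was 5 with limma on log2(TPM + 1), and the count that fell was 3 with DESeq2 and 2 with counts per read pair or without miR-322/-503 replicate 2. The summed level of 5 markers of proliferating myoblasts moved the other way, from between 677 and 722 CPM to between 450 and 477 CPM. In that list Mki67, Top2a and Ccnb1 fell, Myf5 rose and Pax7 stayed at or under 12 estimated counts (3 read pairs) in every library. Bulk RNA cannot tell fewer cells of a type from less RNA per cell, and the part of cell state in the values below was not tested.

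Markers of other cell types were read in the same way. All 6 adipocyte markers were at or under 12 counts in every library, and 4 of them, Adipoq, Fabp4, Cidec and Lep, were at 0. Of the 5 macrophage markers Adgre1 was at 0 and Ptprc at or under 12 counts, with a summed level of 3.54 to 5.08 CPM in the control and 3.86 to 4.28 CPM with miR-322/-503, and of the 3 tested Lyz2 fell. Of the 4 endothelial markers 3 were at or under 12 counts and the sum, 1.03 to 1.30 against 3.75 to 5.07 CPM, came almost wholly from Tek, which rose. The 5 osteoblast markers summed to 56.5 to 69.4 against 57.2 to 57.8 CPM, almost wholly from Runx2, with Ibsp at 0, and of the 3 tested Alpl fell. The 5 neural and glial markers, which matter here because Ckb and Eno2 are high in brain, summed to 48.6 to 51.1 against 102 to 115 CPM, with Aqp4 and Rbfox3 at 0 and Snap25 at or under 12 counts. Tubb3 made up most of that sum and rose, while Gfap fell. The part of these markers in the values below was not tested.

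Levels of different genes were compared as TPM, which is scaled to transcript length as well as to library size. In the control, Eno1 stood highest of the 10 with 1446 ± 48.8 TPM (SD, n = 3), followed by Pgam1 with 567 ± 32.2, Eno3 with 347 ± 35.7 and Ak1 with 260 ± 18.3 TPM. Pfkl was at 99.4 ± 12.1, Ckb at 72.0 ± 9.18 and Pfkm at 58.4 ± 3.23 TPM. Ckm at 19.6 ± 0.720, Pgam2 at 9.60 ± 1.29 and Pygm at 3.72 ± 1.33 TPM stood lowest. No neighbours in this order overlapped over the 3 control libraries. In the miR-322/-503 group the order was the same, but Ckb and Pfkm overlapped.

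**Figure D1:**
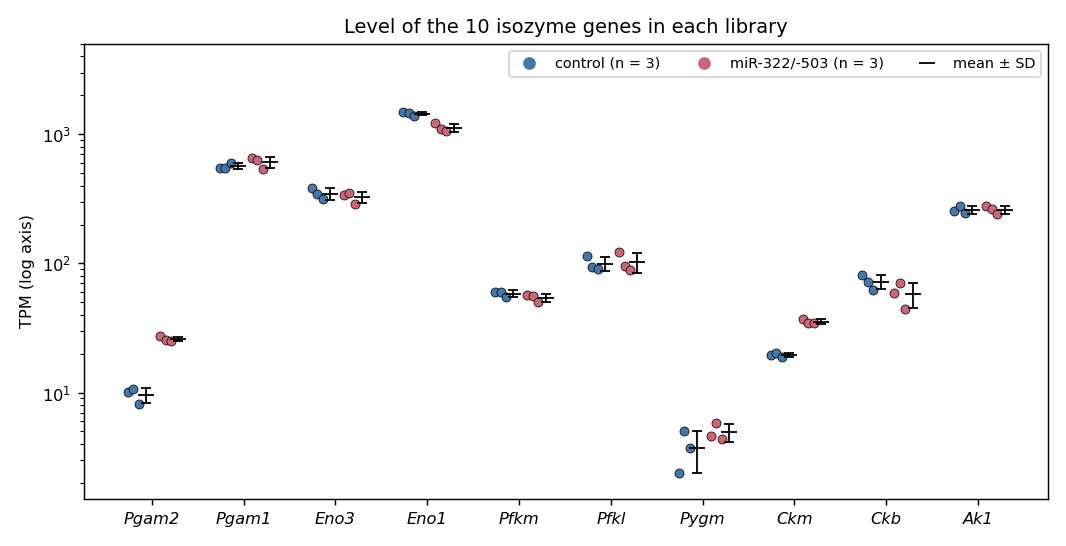
TPM of the 10 isozyme genes in each library, on a log axis, with control and miR-322/-503 libraries in separate colours and bars at the mean ± SD of each group. The miR-322/-503 libraries of Pgam2 (25.2 to 27.2 TPM) and Ckm (34.3 to 37.4 TPM) stand above all control libraries (8.15 to 10.6 and 18.9 to 20.3 TPM), those of Eno1 stand below, and the other 7 genes overlap.

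The first pair is that of phosphoglycerate mutase, which moves the phosphate group from position 3 to position 2 of phosphoglycerate. Pgam2 was at 10.1, 10.6 and 8.15 TPM in the control (replicates are always given in the order of their numbers) and at 27.2, 25.7 and 25.2 TPM with miR-322/-503. All 3 miR-322/-503 libraries lay above all control libraries, a pattern that 18.8% of all tested genes showed upward. In CPM the mean rose from 4.25 ± 0.566 to 11.7 ± 0.339 (SD, n = 3), a log2 fold change of 1.46 (SE 0.13, 95% interval 1.16 to 1.75) with an adjusted p of 0.000149 in edgeR. Pgam2 lies at chr11:5801640-5803733 on the minus strand, and its exons overlap no other annotated gene.

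Pgam1, its widely expressed partner on chromosome 19, was at 549, 547 and 604 TPM in the control and at 650, 637 and 536 TPM in the miR-322/-503 libraries. The groups overlapped, and the log2 fold change of 0.12 (95% interval -0.06 to 0.29) did not pass the test (edgeR adjusted p = 0.295). The median of all tested genes on chromosome 19 was 0.14, against -0.01 over all autosomes, and its part in the value was not tested. Pgam1 has an annotated pseudogene, Pgam1-ps2, which took between 10.8% and 15.2% of the summed counts of both in the 6 libraries, and Pgam1-ps1 was near 0. With Pgam1-ps2 added, the CPM sum was 608 ± 41.0 in the control and 653 ± 32.8 with miR-322/-503.

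Within a library, the ratio of Pgam2 to Pgam1 in TPM was 0.0183, 0.0194 and 0.0135 in the control and 0.0419, 0.0404 and 0.0471 with miR-322/-503. The ratio was higher in all 3 miR-322/-503 libraries, by 2.55-fold (difference of 1.35 on the log2 scale, two-sided exact permutation p = 0.1, the smallest that 3 against 3 can give). Pgam2 made up 1.68% of the pair in the control and 4.13% with miR-322/-503, so the non-muscle isozyme stayed the main one. With the pseudogenes added to Pgam1 the difference was 1.38.

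The second pair is enolase, which turns phosphoglycerate into phosphoenolpyruvate. Eno1, the form of most tissues, was at 1485, 1462 and 1392 TPM in the control and at 1215, 1094 and 1053 TPM with miR-322/-503. All 3 miR-322/-503 libraries lay below all control libraries, as 22.8% of all tested genes did. In CPM the mean went from 1388 ± 49.4 to 1084 ± 60.4, a log2 fold change of -0.36 (SE 0.06, 95% interval -0.49 to -0.22, edgeR adjusted p = 0.00354). The median of all tested genes on its chromosome, 4, was -0.19, and its part in the value was not tested.

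Eno1 has a near-identical copy, Eno1b, on chromosome 18, and whether reads were shared between them was not tested. Eno1b had 38768, 3592 and 33379 estimated counts in the control, against 37746, 24928 and 23731 with miR-322/-503. Its share of the sum of both was 2.99% in control replicate 2 and between 22.8% and 26.1% in the other 5 libraries, while Eno1 itself did not stand apart in control replicate 2. The sum of both was 1920, 1456 and 1726 CPM in the control and 1548, 1368 and 1381 CPM with miR-322/-503, and the groups overlapped. With the counts of Eno1b added to Eno1, a fit chosen after seeing the data, the log2 fold change was -0.25 and no longer passed the test (adjusted p = 0.120 in edgeR, 0.301 in limma on TPM). Eno1b alone had a log2 fold change of 0.15 (edgeR adjusted p = 0.902), and of -0.37 without control replicate 2.

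**Figure D2:**
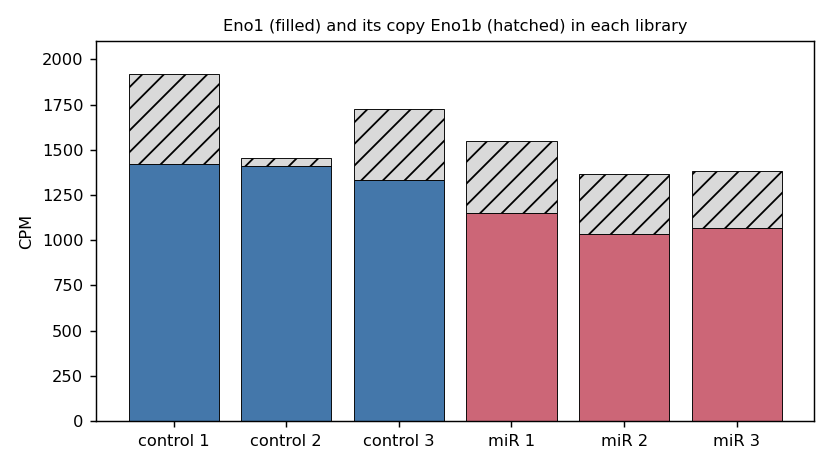
CPM of Eno1 and of its near-identical copy Eno1b in each of the 6 libraries, stacked so that the bar height is their sum. The share of Eno1b is 2.99% in control replicate 2 and 22.8% to 26.1% in the other libraries, and the sums of the groups overlap (1456 to 1920 CPM in the control, 1368 to 1548 CPM with miR-322/-503).

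Eno3, the muscle enolase, was at 385, 342 and 314 TPM in the control and at 337, 353 and 289 TPM with miR-322/-503. The groups overlapped, and the log2 fold change of -0.07 (95% interval -0.29 to 0.14) did not pass the test (edgeR adjusted p = 0.609). An increase of Eno3 above 1.10-fold lies outside that interval, whereas Pgam2, which also lies on chromosome 11, had an interval of 2.24- to 3.37-fold.

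The ratio of Eno3 to Eno1 in TPM was 0.259, 0.234 and 0.226 in the control and 0.277, 0.323 and 0.274 with miR-322/-503. The groups did not overlap and differed 1.22-fold (0.28 on the log2 scale, two-sided exact permutation p = 0.1, the smallest possible). With Eno1b added to Eno1 the ratio was 0.189, 0.226 and 0.173 in the control and 0.204, 0.242 and 0.210 with miR-322/-503. The groups then overlapped (difference of 0.16, exact permutation p = 0.3). The overlap came from control replicate 2 alone, the library in which the share of Eno1b was low.

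The third pair is cytosolic creatine kinase, in which Ckm is the muscle and Ckb the brain form. Ckm was at 19.4, 20.3 and 18.9 TPM in the control and at 37.4, 34.3 and 34.5 TPM with miR-322/-503. The 2 groups lay well apart, and the spread within each was under 5% of its mean. In CPM the mean rose from 28.3 ± 1.13 to 51.6 ± 2.41, a log2 fold change of 0.87 (SE 0.07, 95% interval 0.71 to 1.03, edgeR adjusted p = 9.6e-05). Ckm lies at chr7:19404776-19422841 on the plus strand, and 15.5% of its exon bases are shared with the antisense gene A930016O22Rik, which had between 0 and 5 counts per library.

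Ckb was at 81.1, 72.1 and 62.8 TPM in the control and at 59.1, 70.0 and 44.1 TPM with miR-322/-503. The miR-322/-503 libraries leaned lower but overlapped with the control. The log2 fold change was -0.27 (95% interval -0.60 to 0.06, edgeR adjusted p = 0.198), and with the replicate number as a block the adjusted p was 0.0412. With single libraries left out, the log2 fold change lay between -0.38 and -0.15 and did not pass. The pseudogenes Ckb-ps1 and Ckb-ps2 were at 0.

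The ratio of Ckm to Ckb in TPM was 0.240, 0.282 and 0.301 in the control and 0.633, 0.490 and 0.781 with miR-322/-503. All 3 miR-322/-503 libraries lay above the control, by 2.28-fold (1.19 on the log2 scale, two-sided exact permutation p = 0.1, the smallest possible). Ckm made up 21.5% of the pair in the control and 38.5% with miR-322/-503, so that Ckb transcripts stayed the more abundant in all 6 libraries.

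Phosphofructokinase makes the committed step of glycolysis, and Pfkm is its muscle and Pfkl its liver form. Pfkm was at 60.3, 60.3 and 54.7 TPM in the control and at 56.6, 56.3 and 49.95 TPM with miR-322/-503. Pfkl was at 113, 94.0 and 91.0 TPM in the control and at 123, 95.4 and 89.3 TPM with miR-322/-503. Both overlapped between the groups, with log2 fold changes of -0.09 (95% interval -0.23 to 0.05, edgeR adjusted p = 0.310) and 0.05 (-0.20 to 0.31, adjusted p = 0.765). The ratio of Pfkm to Pfkl was 0.533, 0.641 and 0.602 against 0.460, 0.590 and 0.559, which also overlapped (-0.15 on the log2 scale, exact permutation p = 0.4). That difference lay between -0.22 and -0.039 with single libraries left out. Of the exon bases of Pfkm, 10.2% are shared with Gm26513, which had 16 to 48 counts per library, and 0.539% with Senp1 on the other strand.

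**Figure D3:**
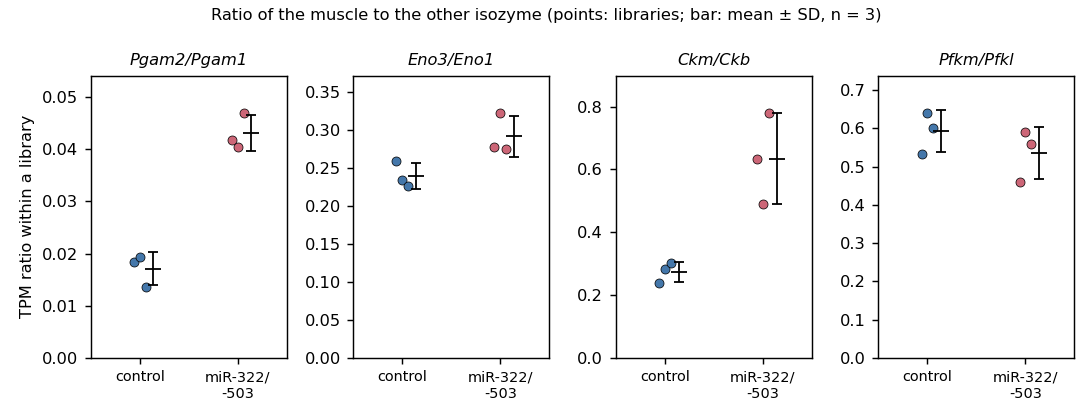
TPM ratios of the isozyme pairs Pgam2/Pgam1, Eno3/Eno1, Ckm/Ckb and Pfkm/Pfkl in each library, 1 panel a pair with its own linear axis from 0, with bars at the mean ± SD of each group. The ratio is higher in all 3 miR-322/-503 libraries for the first 3 pairs (2.55-, 1.22- and 2.28-fold) and overlaps for Pfkm/Pfkl. With Eno1b added to Eno1, which is not drawn, the enolase ratio overlaps too (0.173 to 0.226 in the control, 0.204 to 0.242 with miR-322/-503). Eno3 itself did not pass the test.

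Pygm, the muscle glycogen phosphorylase that is missing in McArdle disease, was the lowest and the least certain of the 10. It had 84, 535 and 302 estimated counts in the control, against 567, 478 and 439 with miR-322/-503, or 2.39, 5.05 and 3.72 against 4.63, 5.85 and 4.35 TPM. Control replicate 1 was low, and the groups overlapped. The log2 fold change was 0.70 with a 95% interval of -0.52 to 1.92 (edgeR adjusted p = 0.369), and it was 0.27 without control replicate 1 and 1.37 without control replicate 2, neither past the test. The CPM of Pygm per TPM ranged from 0.454 to 1.34 over the libraries, a 2.96-fold span, where the other 9 genes spanned 1.06- to 1.23-fold, so counts and length-scaled values of Pygm did not move in proportion.

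Ak1, the main adenylate kinase of muscle cytosol, was at 255, 280 and 244 TPM in the control and at 277, 264 and 242 TPM with miR-322/-503. The groups overlapped almost fully. The log2 fold change was -0.00 with a 95% interval of -0.16 to 0.15 (edgeR adjusted p = 0.969), so that a change beyond 0.896- or 1.11-fold lies outside the interval.

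**Figure D4:**
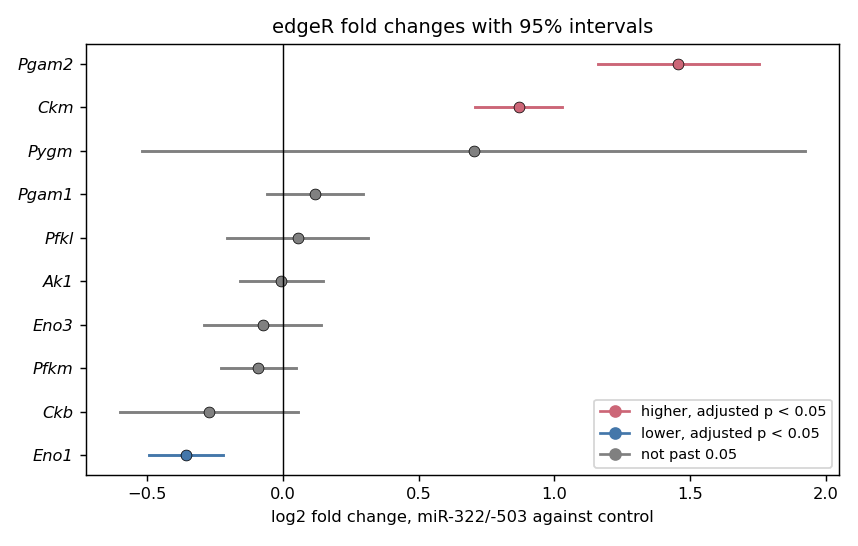
Log2 fold change of each of the 10 genes, miR-322/-503 over control, with its 95% interval from edgeR, with a line at 0. Pgam2 (1.46), Ckm (0.87) and Eno1 (-0.36) passed the test, and the interval of Pygm (-0.52 to 1.92) is the widest.

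Of the 6 muscle forms, Pgam2 and Ckm rose, while Pfkm, Eno3, Pygm and Ak1 did not pass the test. Of the 4 forms of other tissues, Eno1 fell with the limit given for its copy, and Pgam1, Pfkl and Ckb did not pass. Pgam2 and Ckm passed the test in all alternatives run, with log2 fold changes between 1.35 and 1.54 and between 0.82 and 0.91.

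The other isozymes of the same enzymes also went in both directions. Pfkp, the platelet form of phosphofructokinase, was at 84.0, 116 and 90.4 CPM in the control and at 158, 137 and 140 CPM with miR-322/-503 (log2 fold change 0.58, edgeR adjusted p = 0.0120), but on log2(TPM + 1) its change was 0.30 and did not pass (limma adjusted p = 0.0730). Eno2, the neuronal enolase, rose by a log2 fold change of 0.31 (edgeR adjusted p = 0.0240). It no longer passed in 5 of the 6 fits with a library left out (adjusted p between 0.0145 and 0.0768) or in limma on log2(TPM + 1) (adjusted p = 0.107). Pygb, the brain glycogen phosphorylase, fell, with a log2 fold change of -0.26 (edgeR adjusted p = 0.0238), and no longer passed in 4 of the 6 fits with a library left out (adjusted p between 0.0133 and 0.0862).

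Among the other adenylate kinases, Ak3 in the mitochondrial matrix had a log2 fold change of 0.08 and did not pass the test. Ak6, a nuclear form, rose by a log2 fold change of 0.23 (edgeR adjusted p = 0.0454), but its adjusted p was between 0.0554 and 0.115 when single libraries were left out. Ak4, another mitochondrial form, was at 20.8, 25.1 and 24.9 CPM in the control and at 6.10, 31.8 and 26.6 CPM with miR-322/-503, where replicate 1 stood apart. Its log2 fold change was -0.14 with all libraries and 0.31 without that replicate. Ak5, a brain form, was close to the limit of detection, with 35, 42 and 50 counts in the control and 5, 11 and 0 counts with miR-322/-503 (edgeR adjusted p = 0.0384). It no longer passed with the replicate number as a block (adjusted p = 0.0668) or in 4 of the 6 fits with a library left out. No fold is given for Ak5, since no miR-322/-503 library exceeded 12 counts. The mitochondrial creatine kinases Ckmt1 and Ckmt2 were at or under 12 counts in every library, and the liver phosphorylase Pygl was too low to be tested.

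The wider pathways were read from lists of the remaining genes. The counts below leave out the 10 genes, of which Pgam2 and Ckm rose and Eno1 fell with the limit given for its copy. The glycolysis list also holds transporters and regulators. In the glycolysis list, 11 of 24 tested genes rose and none fell, with a median log2 fold change of 0.30, beside 13.2% higher and 15.5% lower and a median of -0.01 over all tested genes. Those that rose were the enzymes Hk2, Gpi1, Pfkp, Aldoa, Aldoc, Tpi1, Pgk1 and Eno2, the lactate transporters Slc16a1 and Slc16a3, and Pdk4, which restrains pyruvate oxidation. Slc16a3, which exports lactate from glycolytic fibers, was at 49.9, 44.2 and 44.8 CPM in the control and at 89.1, 86.6 and 84.4 CPM with miR-322/-503 (log2 fold change 0.91, edgeR adjusted p = 6.1e-05). Slc16a1 rose by a log2 fold change of 0.80 and Pdk4 by 0.66. The log2 fold changes of the 8 enzymes lay between 0.28 and 0.58. Pkm, the pyruvate kinase gene and the most abundant of the list, went the other way without passing the test, with 2356, 2329 and 2338 TPM in the control and 2101, 1976 and 2115 TPM with miR-322/-503 (log2 fold change -0.19, edgeR adjusted p = 0.0647). The groups of Pkm did not overlap, and without control replicate 3 it was the 1 gene of the list that fell. The count that rose was 5 with limma on log2(TPM + 1).

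In the glycogen list, 6 of 17 tested genes rose (35.3%, beside 13.2% of all tested genes) and 5 fell (29.4%, beside 15.5%), with a median log2 fold change of 0.16. Phka2, the liver form of the alpha regulatory subunit of phosphorylase kinase, was at 33.9, 35.5 and 35.9 CPM in the control and at 59.9, 59.7 and 61.2 CPM with miR-322/-503 (log2 fold change 0.78, edgeR adjusted p = 6.0e-05). Gbe1, the branching enzyme of glycogen synthesis, rose by 0.66. Phkb, the beta regulatory subunit, fell from 137, 133 and 154 CPM to 89.1, 87.5 and 95.8 CPM (log2 fold change -0.64, edgeR adjusted p = 0.000658). Phka1, the muscle form of the alpha subunit, did not pass the test (log2 fold change 0.00, edgeR adjusted p = 0.974). The count of genes that fell was 1 without control replicate 1 or 2, 3 without miR-322/-503 replicate 1 and 2 without miR-322/-503 replicate 3, and the count that rose was 3 without control replicate 2 and with limma on log2(TPM + 1).

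In the phosphagen and adenylate list, 5 of 13 tested genes rose (38.5%, beside 13.2% of all tested genes) and 1, Ak5, fell (7.69%, beside 15.5%), with a median log2 fold change of 0.08. Both enzymes of creatine synthesis rose. Gatm, which makes guanidinoacetate, was at 28.7, 28.2 and 26.9 CPM in the control and at 109, 102 and 109 CPM with miR-322/-503, a log2 fold change of 1.93 (SE 0.06, edgeR adjusted p = 1.6e-06). Gamt, which methylates guanidinoacetate to creatine, was at 22.7, 27.0 and 25.3 CPM in the control and at 41.6, 45.4 and 51.6 CPM with miR-322/-503 (log2 fold change 0.89, edgeR adjusted p = 0.000720). The creatine transporter Slc6a8, with a log2 fold change of -0.21, did not pass the test, but did with the replicate number as a block (edgeR adjusted p = 0.0304), where it took the place of Ak5 as the gene that fell. Adssl1, the muscle adenylosuccinate synthase of the purine nucleotide cycle, rose from 33.2, 38.1 and 35.2 CPM to 67.6, 71.3 and 73.8 CPM, a log2 fold change of 0.998 (edgeR adjusted p = 6.0e-05). Without any 1 of the control libraries, or without miR-322/-503 replicate 1, no gene of the list fell.

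**Figure D5:**
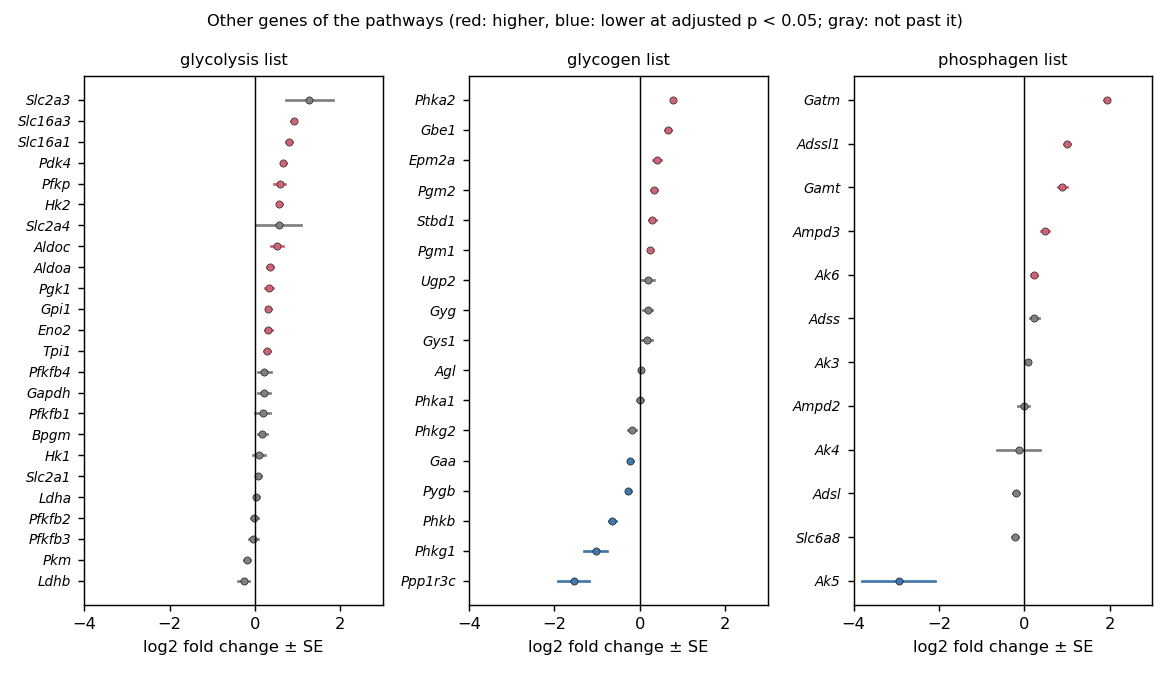
Log2 fold change of the tested genes of the glycolysis, glycogen and phosphagen lists (1 phosphagen gene that did not pass the test is not shown), miR-322/-503 over control, with its standard error as a horizontal bar, and red (higher) or blue (lower) for genes past the edgeR test and gray for the others. The lists leave out the 10 genes of the set, of which Pgam2 and Ckm rose and Eno1 fell. In the glycolysis list, which also holds transporters and regulators, 11 of 24 tested genes rose and none fell. In the glycogen list 6 of 17 rose and 5 fell, and in the phosphagen list 5 of 13 rose and 1 fell.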

How the data were processed

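RNA-seq was carried out on 3 control and 3 miR-322/-503 libraries of total RNA. According to the labels and the methods of the study, reads were processed by the authors with Trim Galore (trimming), HISAT2 (alignment to GRCm38) and StringTie (quantification) (versions, annotation and strand setting not given in the sources used here). The deposited matrix holds whole-number, unnormalized estimated counts of genes. For every single library a deposited table adds coverage (a signal per base, used to see how counts were made), FPKM and TPM per gene. The values of genes listed more than once in a library (7 to 13 identifiers per library) were summed.

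The control libraries totalled 78219596, 83632836 and 86470394 estimated counts (replicates 1 to 3), the miR-322/-503 libraries 92157388, 73532084 and 75835534. A read pair entered as about 4 counts, since 1 count stood for 75.0 covered bases and low genes most often had 300 covered bases, so that the libraries held about 18383021 to 23039347 read pairs. The limit of detection was set at 12 counts, or 3 read pairs, and covers counting error only. Replicates of a group differed by more than sampling noise (chi-square per degree of freedom 14.8 to 21.3), and TMM factors lay between 0.977 and 1.03.

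Genes were tested with edgeR 4.0.16 in R 4.3.3 (filterByExpr, TMM, quasi-likelihood test, Benjamini-Hochberg adjustment over 18140 genes). The standard error is the log2 fold change divided by the square root of F, with which the 95% interval was built. Isozyme ratios were compared by a two-sided exact permutation test over the 6 libraries. Alternatives were DESeq2 1.42.0, which the study used, limma 3.58.1 on log2(TPM + 1), other normalizations and filters, counts per read pair, a replicate block and leaving out each library. Adding near-identical copies was planned for the ratios, and for the fits of single genes it was added after seeing the data. In counts simulated for this comparison over 17805 genes, edgeR recovered 97 of 100 genes set to a log2 difference of 1 and 100 of 100 set to 2, with 13 false calls. The changed genes were drawn only from well-counted genes, and all genes were given the same spread between replicates. The recovery therefore does not carry over to genes with few counts or a wide spread, such as Ak5, Pygm, Eno1b and Ak4.

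The 10 genes and the lists were chosen with earlier results of these data known. Named beside them were near-identical copies, the other isozymes of the same enzymes and, from each list, the 3 genes past the test with the largest absolute log2 fold change and 10 CPM or more in the higher group's mean. Where the text names further list members, they were chosen after their values were seen. Where a symbol had more than 1 identifier, the one with the most counts was used. Gene positions, exons and 3′UTRs are from GENCODE M21, in which 55154 of the 55421 identifiers were found. MicroRNA and promoter sequences are from RefSeq (GRCm38.p6). The values of 1 gene of the phosphagen list are not reported here, and other cells and tissues of the study were not analysed here.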

Additional observations from a re-analysis of the deposited data

How the results depend on the processing

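Pgam2 and Ckm passed the test under every alternative run. For Eno1 this held except with its copy added, where the log2 fold change was -0.25 both in edgeR (adjusted p = 0.120) and in limma (adjusted p = 0.301). The cause was not tested. With the replicate block, Ckb passed the test at -0.27, and the block changed no other call among the 10 genes. Outside them Ak5 no longer passed with the block (adjusted p = 0.0668). Ak1, close to 0, turned positive with DESeq2 (0.0037), counts per read pair (0.0038), limma (0.0063), RLE factors (0.0069) and upper-quartile factors (0.013), and lay between -0.041 and 0.044 with single libraries left out. Eno3 lay between -0.14 and 0.0019 and Pfkl between -0.055 and 0.13 in the same way. Of the other genes, Pgam1-ps2 was at -0.0088 in limma, and with single libraries left out Eno1b lay between -0.37 (without control replicate 2) and 0.66, Ak4 between -0.53 and 0.31 (without miR-322/-503 replicate 1), and Pgam1-ps2 between -0.12 and 0.091. The Eno3/Eno1 ratio moved to 0.16 with copies added.

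Over all genes, 832 were called higher and 959 lower past a log2 fold change of 1 in size. With limma on log2(TPM + 1) these were 387 and 564, the glycolysis list had 5 genes higher, the glycogen list 3 and the myotube list 5. The myotube list had 3 genes lower with DESeq2 and 2 with counts per read pair, and the phosphagen list had 0 lower without a filter, with at least 10 counts in every library, and with counts per read pair. With single libraries left out, the calls over all genes were 715 to 806 higher and 886 to 965 lower. The glycolysis list then had 8 to 11 genes higher and 0 to 1 lower, the glycogen list 3 to 6 higher and 1 to 4 lower, the phosphagen list 0 to 1 lower, and the myotube list 1 to 2 lower. The causes of these changes were not tested.

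The replicate numbers were checked for pairing. The deviations of same-numbered libraries correlated with r = 0.264, 0.156 and 0.0994, and 2 of 3 pairs exceeded 0.1. Libraries of different numbers correlated with r between -0.236 and 0.0897, and each of the 6 libraries correlated best with its own number. The labels do not say what same-numbered samples share, and it was not tested. The main fit did not use the number. With the replicate block, 747 genes were called higher and 893 lower.

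The exact test of 3 against 3 cannot go below 0.1, so the ratios are read from their values. Depth limited Ak5 and the genes at or under 12 counts. The counts of Eno1b limit what can be said of Eno1, and each group being 1 stable line limits all comparisons.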

Other observations

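Gapdh, a glycolytic enzyme that is often used as a reference gene, was at 125, 171 and 157 CPM in control replicates 1 to 3 and at 147, 191 and 188 CPM in miR-322/-503 replicates 1 to 3. The groups overlapped (log2 fold change 0.21, edgeR adjusted p = 0.316). It was chosen after its values were seen.

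A pair of glycogen genes with low counts, also chosen after their values were seen, were past the test with all libraries. Ppp1r3c, which brings protein phosphatase 1 to glycogen, had 61, 64 and 68 counts in the control and 31, 12 and 24 with miR-322/-503 (log2 fold change -1.55, edgeR adjusted p = 0.0174). Without control replicate 1 or 2 it no longer passed, with adjusted p between 0.0339 and 0.0506 when single libraries were left out. Phkg1, the muscle catalytic subunit of phosphorylase kinase, had 63, 80 and 71 counts against 36, 37 and 31 (log2 fold change -1.03, edgeR adjusted p = 0.0287), and passed in 1 of the 6 fits with a library left out, with adjusted p between 0.0459 and 0.0943.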
